A study of Mus musculus with 12 samples.

Results

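Most mouse genes for the proteins of the cytosolic ribosome are named Rpl for the large subunit and Rps for the small subunit. The genes described here are the 76 rows, of 43698 gene rows in the count table, whose names are Rpl or Rps with a number and an optional a or x, or are Rplp0, Rplp1, Rplp2 or Rpsa. They comprise 46 genes of the large subunit and 30 of the small subunit. The rule used names only and no measured value. All 76 passed the filter on low counts, as did 19525 rows in all, with between 1374 and 223026 reads per gene and library.

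Ribosomal protein genes are among the most transcribed genes of any growing cell, and their products are made in matched amounts for assembly. Their mRNAs begin with a run of pyrimidines, the terminal oligopyrimidine tract, through which mTOR complex 1 and the RNA-binding protein Larp1 control their translation and storage. Several proteins act outside the ribosome when it is not being assembled: Rpl5 and Rpl11 bind Mdm2, the ubiquitin ligase of p53. Anthracyclines such as doxorubicin damage DNA and also disturb the nucleolus, where ribosomes are assembled.

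The libraries were made from whole tumours of MC38, a colon carcinoma line of mouse, placed subcutaneously in the left flank of C57BL/6J mice aged 8 weeks. All mice were tumour bearing, and tumours were taken at day 20. In the groups given 1 agent, injections into the peritoneum began at day 9 and were repeated every 3 days: PBS (labelled Ctrl), 14 µg of DOX (doxorubicin; 0.56 mg/kg), 14 µg of DPD (0.56 mg/kg), or 20 µg of the antibody conjugate Ru-PD-L1 (0.80 mg/kg; labelled RP). DPD is read here as the DOX prodrug, and Ru-PD-L1 as the PD-L1-targeted antibody-catalyst conjugate, that the series title names. Combined groups received 14 µg of DOX or DPD beside the tumour 6 hours after the conjugate, and are labelled R+X, read here as conjugate with DOX, and R+D, read as conjugate with DPD. If those letters stand the other way round, the results of those 2 groups change places. The route of the drug thus differed between single and combined groups, and the conjugate dose in the combined groups is not stated. Each group had 2 libraries, called replicate 1 and replicate 2 in listing order, and p-values measure only the spread between these libraries.

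Libraries held 46547114 to 56462259 reads assigned to genes. Of 7 epithelial markers (Krt8, Krt18, Krt19, Epcam, Cdh1, Cdx2 and Vil1), 6 averaged under 1 CPM (counts per 10 to the sixth reads), so the epithelial identity of the tumour cells was not visible in these markers, whereas fibroblast markers summed to between 4131 and 7393 CPM. In whole tumours, a change in the kinds of cells and a change in the RNA of each cell cannot be told apart. The summed CPM of 6 red blood cell markers was 223.3 and 260.4 in the PBS libraries, 368 and 348 under DOX, 124 and 25.3 under DPD, 51.0 and 87.7 under RP, 37.2 and 55.4 under R+X, and 21.7 and 32.6 under R+D. Skeletal muscle markers summed to 242.3 and 88.0 CPM under RP and 309 in R+D replicate 2, and to 12.1 to 28.0 in the other 9 libraries. T cell markers summed to 45.7 and 38.3 CPM under RP and 44.6 in R+D replicate 2, against 24.4 and 19.3 under PBS. Jchain, the joining chain of secreted antibodies and the marker of the B cell lineage that averaged above 1 CPM, read 23.2 and 14.5 CPM under RP, 15.5 in R+D replicate 2 and 10.7 in DPD replicate 2, against 2.4 and 1.8 under PBS. Endothelial markers summed to 124 and 91.2 under RP against 69.0 and 51.1 under PBS, and neutrophil markers to 9.6 and 19.5 against 5.2 and 2.6. Epithelial markers summed to 10.7 and 14.3 under RP against 16.5 and 15.4 under PBS, and those of macrophages, fibroblasts and skin overlapped between the 2 groups. The epithelial sum was mostly Cdh1 (mean 13.9 CPM over the libraries) and the skin sum mostly Krt14 (mean 360 CPM). The part of these markers in the results below was not tested.

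RefSeq promoter windows on GRCm38.p6 were found for 56 of the 76 genes. In 12 of the 56 (21.4%) the annotated first base was a C followed by at least 4 further pyrimidines, which is how a terminal oligopyrimidine tract reads in DNA, against 2.45% of the 25516 windows of other genes. The 6 printed are chosen from these 12 genes after their values were seen, to set genes that vary in different ways beside each other. That each carries a run at the start follows from this choice. Each holds 40 bases before the annotated start and 20 from it on, read 5′ to 3′ on the gene's own strand, and the capitals mark the pyrimidine run that begins at the start. Rps6 lies at chr4:86857348-86857407 (minus strand), Rpl15 at chr14:18270967-18271026 (minus), Rpl38 at chr11:114668540-114668599 (plus), Rps10 at chr17:27635225-27635284 (minus), Rps15a at chr7:118116128-118116187 (minus) and Rps27 at chr3:90213629-90213688 (minus).
Rps6: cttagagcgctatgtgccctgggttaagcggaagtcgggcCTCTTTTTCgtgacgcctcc
Rpl15: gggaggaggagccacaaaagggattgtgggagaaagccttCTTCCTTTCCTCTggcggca
Rpl38: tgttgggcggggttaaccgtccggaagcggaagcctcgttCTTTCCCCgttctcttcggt
Rps10: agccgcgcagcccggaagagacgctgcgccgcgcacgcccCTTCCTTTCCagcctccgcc
Rps15a: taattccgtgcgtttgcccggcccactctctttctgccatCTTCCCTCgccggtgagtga
Rps27: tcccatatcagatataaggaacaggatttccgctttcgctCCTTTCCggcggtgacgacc
The runs are 9 bases in Rps6, 13 in Rpl15, 8 in Rpl38, 10 in Rps10, 8 in Rps15a and 7 in Rps27. A run of at least 8 pyrimidines touching the 8 bases before to 10 after the start was present in 44.6% of the windows of ribosomal protein genes and 13.3% of the others. CCGGAAG, the core bound by ETS factors such as GABP, was found on either strand of the 300-base windows in 39.3% against 9.33%. AAGATGG, a YY1 core, was found in 14.3% against 6.47%, and TATAAA in 8.93% against 14.1%. These matches describe the letters only.

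The 76 genes together took between 5.73% and 11.8% of all reads in a library, a range of 2.07-fold. In the PBS libraries the share was 8.32% and 11.8%, under DOX 11.2% and 7.01%, and under DPD 8.84% and 6.40%. It was 7.25% and 5.73% under RP, 7.02% and 7.58% under R+X, and 6.74% and 7.24% under R+D. PBS replicate 2 and DOX replicate 1 stood above every other library, and the other 10 lay between 5.73% and 8.84%. Group means were 10.1 ± 2.49% for PBS, 9.08 ± 2.94% for DOX, 7.62 ± 1.72% for DPD, 6.49 ± 1.08% for RP, 7.30 ± 0.400% for R+X and 6.99 ± 0.356% for R+D (SD, n = 2). All 3 groups given the conjugate had both libraries below both PBS libraries, while the DOX and DPD groups each overlapped the PBS group.

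**Figure D1:**
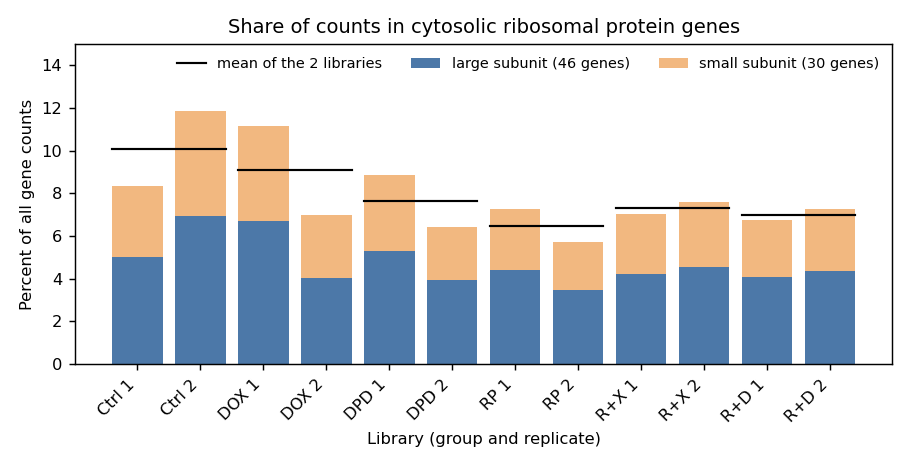
Percent of reads assigned to the 76 ribosomal protein genes in each of the 12 libraries, by group, each bar 1 library and starting at 0, with the large and small subunit parts stacked and a line at the mean of each group (Ctrl marks PBS). PBS replicate 2 (11.8%) and DOX replicate 1 (11.2%) stand above the other 10 libraries.

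Per kilobase of mRNA, Rps12 (3696 CPM per kilobase), Rplp1 (3654), Rpl13a (3622) and Rplp0 (3406) led, and Rps10 (148) and Rps28 (162) were lowest, although both also have copy rows, described further on. The medians of the subunits were close on this scale, 1151 CPM per kilobase over the large and 1312 over the small subunit genes. All CPM values, those above included, are scaled by TMM, a correction for library composition. From here on they are compared within a gene.

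The stalk recruits the elongation factors and is built from Rplp0 with Rplp1 and Rplp2. Rplp0 read 3053 and 4665 CPM in the PBS libraries, 4368 and 2911 under DOX, 3200.3 and 2219 under DPD, 2469.9 and 1934 under RP, 2521 and 2769.7 under R+X and 2333 and 2461 under R+D. The libraries of RP, R+X and R+D all lay below both PBS libraries, and the DOX pair straddled the lower PBS value. The edgeR log2 fold change of RP over PBS was -0.81 ± 0.26 (SE; adjusted p = 0.166 over all genes tested). Rplp1 and Rplp2 gave -0.78 and -0.79 in the same comparison, so the 3 stalk genes differed from each other by far less than the standard error of any of them.

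Rpl3, which lies at the peptidyl transferase centre, varied least of all 76 genes, by 1.71-fold between its highest and lowest library. It read 1616 and 2182 CPM under PBS, 2039 and 1607 under DOX, 1723 and 1360.1 under DPD, 1518 and 1278 under RP, 1491 and 1540.2 under R+X and 1499.6 and 1425 under R+D. The groups given the conjugate were again below both PBS libraries, by a log2 fold change of -0.44 ± 0.19 for RP over PBS (edgeR adjusted p = 0.223). Rpl10, added last to the large subunit, gave -0.65 in the RP comparison, and Rpl39, a small protein of the exit tunnel, gave -0.998 ± 0.29 (edgeR adjusted p = 0.151). Both are X-linked, with Rps4x and Rpl36a.

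Rpl5 and Rpl11 enter the ribosome together with 5S RNA and can instead bind Mdm2. Rpl5 stood at 1399 and 2179.9 CPM under PBS, 2025 and 1412 under DOX, 1526 and 1165 under DPD, 1153 and 978 under RP, 1301 and 1379.6 under R+X and 1174 and 1188 under R+D. Rpl11 stood at 782 and 1096 CPM under PBS, 1301 and 465 under DOX, 853 and 635 under DPD, 793 and 504 under RP, 670.1 and 686 under R+X and 619.8 and 653 under R+D. The partners parted in 2 libraries: Rpl11 was at its lowest in DOX replicate 2, where Rpl5 was level with PBS replicate 1, and RP replicate 1 was inside the PBS range for Rpl11 but not for Rpl5. RP over PBS gave log2 fold changes of -0.75 for Rpl5 and -0.53 ± 0.40 for Rpl11 (edgeR adjusted p = 0.424 for Rpl11). Rpl22, a further protein with roles outside the ribosome in T cell development, gave -0.63.

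Rps6, the substrate of the S6 kinases downstream of mTOR, read 2005 and 3099.8 CPM under PBS, 2705 and 2019 under DOX, 2143 and 1469 under DPD, 1592 and 1278 under RP, 1674 and 1853 under R+X and 1511 and 1723 under R+D. DOX replicate 2 and DPD replicate 1 lay at or above the lower PBS value, and all 6 libraries of the conjugate groups lay below it. The log2 fold change of RP over PBS was -0.83 ± 0.25 (edgeR adjusted p = 0.156). Rps2, which faces the mRNA entry, gave -0.56, Rpsa, which is also the laminin receptor precursor, -0.78, Rps4x -0.68, Rps27a, made as a fusion with ubiquitin, -0.81, and Rps19, mutated in Diamond-Blackfan anaemia, -0.90.

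Rps14, on the platform of the small subunit, read 1459 and 2966 CPM under PBS, 2395 and 1701 under DOX, 1739 and 901 under DPD, 976 and 881 under RP, 1159.9 and 1370.1 under R+X and 909 and 1123 under R+D. The PBS libraries differed by 1.02 on the log2 scale for Rps14, and both were above all 6 libraries of the conjugate groups. Its log2 fold change over PBS was -1.25 ± 0.36 for RP (edgeR adjusted p = 0.151), -0.81 for R+X and -1.12 for R+D.

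The lowest and most variable gene was Rps28, by 5.56-fold between its highest and lowest library. It read 66.3 and 94.3 CPM under PBS, 142 and 27.8 under DOX, 62.2 and 51.5 under DPD, 92.6 and 25.6 under RP, 39.5 and 47.6 under R+X and 42.4 and 50.4 under R+D. Its DOX libraries were the highest and the lowest but 1, and its RP libraries stood far apart. Its log2 fold change for RP over PBS, -0.44 ± 0.66 (edgeR adjusted p = 0.696), was smaller than its error. Rps28 and Rps10 belong to 4 genes whose name appears again in the table with a numbered suffix and a like number of reads. The ratio of the copy's reads to the gene's was 1.01 for Rps28, 1.04 for Rps10, 0.986 for Rps18 and 0.850 for Rpl10a. How reads were shared between such rows is not given in the sources used here, so the levels of these 4 genes are uncertain and may be understated. Summing the copies, an alternative chosen after seeing the data, left the median of the 76 genes in RP over PBS at -0.81.

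The 76 genes varied together from library to library. In every one of the 76, PBS replicate 2 and DOX replicate 1 were the 2 highest libraries. The median Pearson correlation between pairs of genes over the 12 libraries was 0.94 and the lowest 0.47, given as a description because all genes share the libraries and their scaling. A single component held 90.9% of the variance of their log2 CPM and the next 6.61%. None of these values was computed for other genes, so they are not shown to be particular to ribosomal protein genes. Mitochondrial ribosomal protein genes and other short genes, described further on, also had their highest medians in PBS replicate 2 and DOX replicate 1. Correlation with the mean profile of the 76 was under 0.9 for 7 genes, of which Rpl36a (0.81), Rps28 (0.83) and Rps15a (0.86) were lowest. That set also held Rpl23, Rpl26 and Rpl38.

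The second component set DOX replicate 2 (-0.72) against RP replicate 1 (0.54). Genes at its positive end, Rps28, Rpl38, Rps10, Rpl36a, Rpl23, Rpl41, Rps29 and Rpl11, deviated from their mean log2 CPM by -1.04 (Rps10) to -0.53 (Rpl41) in DOX replicate 2. Near its negative end stood Rps14, Rps15a, Rpl17, Rps27, Rpl26, Rps7 and Rpl12, with deviations of 0.03 (Rpl12) to 0.39 (Rps15a) in the same library. Rps15a shows the second kind, with 1014 and 914 CPM in the DOX libraries against 534 and 477 under RP. Rpl38 shows the first, with 408 and 121 CPM under DOX and 271 and 143 under RP, after 251 and 399.9 under PBS. Rps10 and Rps15a carry pyrimidine runs of 10 and 8 bases at the start in the sequences printed above, and they sit at opposite ends. Neither GC content (Spearman rho 0.26 over 76 genes) nor mRNA length (rho -0.26) ordered the genes closely along this component. GC content did move with the values of whole libraries. Over genes, Spearman's rho between GC content and deviation from the mean was 0.35 in DOX replicate 1 and -0.39 in DOX replicate 2. It was 0.19 in RP replicate 1 and -0.24 in RP replicate 2. The part of GC content in the differences within these pairs was not tested.

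**Figure D2:**
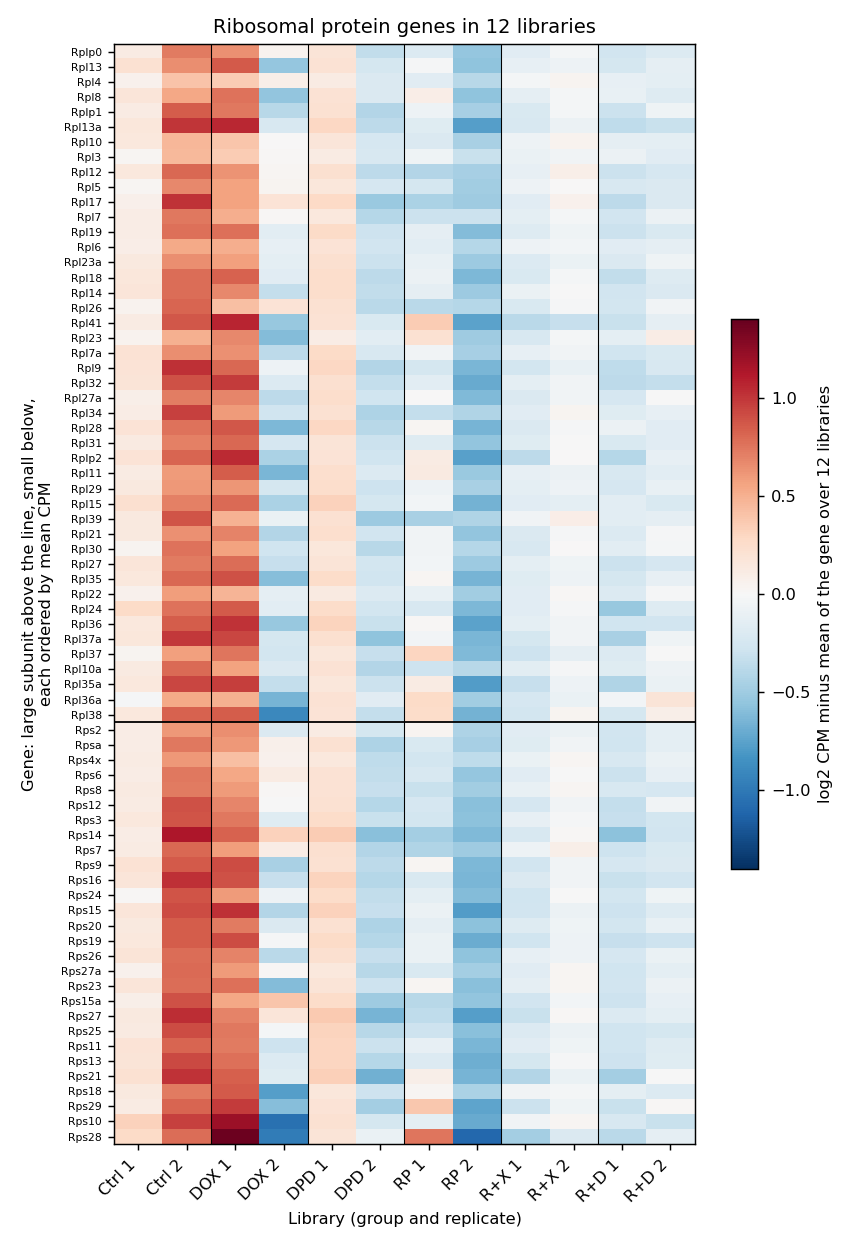
Deviation of log2 CPM from each gene's mean over 12 libraries, for 73 of the 76 genes (rows) and the libraries (columns), on a colour scale in log2 units. PBS replicate 2 and DOX replicate 1 are high across all rows, while DOX replicate 2 and RP replicate 1 are high in some rows and low in others.

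The pair of libraries within a group differed more for ribosomal protein genes than for the typical gene in 4 of the 6 groups. The median absolute log2 difference between the pair was 0.64 for the 76 genes and 0.31 for all genes tested under PBS, 0.97 and 0.51 under DOX, 0.55 and 0.31 under DPD, and 0.44 and 0.28 under RP. Under R+X both medians were 0.15, and under R+D the 76 genes differed less than all genes, by 0.12 against 0.21. Beside 143 other abundant genes, the 76 had the larger median difference in all 6 groups, with 0.15 against 0.08 in R+X and 0.12 against 0.10 in R+D the closest. The 143 were kept by a lower limit on mean CPM alone, which some of the 76 genes do not reach. They were thus not matched to the 76 in level. Counting error was small in comparison, with a median standard deviation of 0.01 on the log2 scale. Rps21, Rpl37a and Rps29 had the widest median difference over groups (0.76, 0.70 and 0.68), and Rps15a and Rpl26 the narrowest (0.20 and 0.22). Of the variance of the 76 genes, 54.1% lay within groups, against 49.7% for all genes tested.

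**Figure D3:**
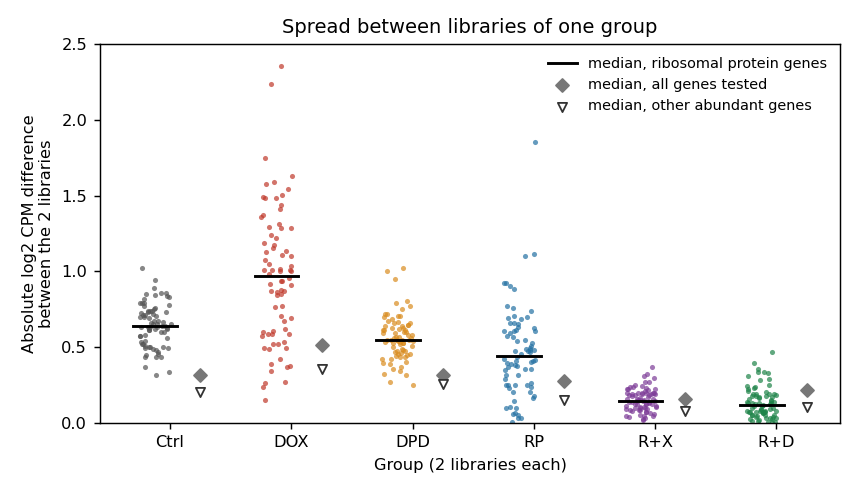
Absolute log2 difference between the 2 libraries of each group for the 76 ribosomal protein genes (points, with a line at their median), beside the medians over all genes tested (diamonds) and over 143 other abundant genes (triangles). The medians of the 76 genes are 0.64 for PBS and 0.97 for DOX, and 0.15 and 0.12 for R+X and R+D.

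Against PBS, all 76 genes had negative log2 fold changes in RP, DPD, R+X and R+D, and 74 in DOX. Of all genes tested, 46.1%, 48.7%, 49.3%, 46.6% and 48.5% were negative in those comparisons, in that order. No ribosomal protein gene passed an edgeR adjusted p of 0.05 in any of these 5 comparisons, which share their PBS libraries, and 0% of all genes tested passed it in the lower direction. The median log2 fold change was -0.81 for RP, a fold of 0.570, beside 0.06 over all genes tested, with single genes between -1.25 (Rps14) and -0.34 (Rpl36a). In that comparison 49 genes had an unadjusted edgeR p under 0.05, all lower, against 9.38% of all genes tested that were lower with such a p. DESeq2 called 22 lower, against 2.63% of all genes to which it gave an adjusted p. Both RP libraries lay below both PBS libraries for 67 of the 76, where the background over all genes tested was 27.1%. Among the exceptions were Rpl11, Rpl23, Rpl36a, Rpl37, Rpl38, Rpl41, Rps28 and Rps29.

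Shares of all genes at an unadjusted edgeR p under 0.05 are given for the main analysis only. Counts at that p with a library left out, or under another alternative, have no such background. They show how the count moved, and not whether ribosomal protein genes differed from other genes. Without PBS replicate 2 the RP median was -0.46. It was -1.10 without PBS replicate 1, -1.07 without RP replicate 1 and -0.62 without RP replicate 2. The 49 genes at an unadjusted edgeR p under 0.05 became 0 without PBS replicate 2 and 11 without RP replicate 2. Among the genes of smallest p were Rps7 (-0.96 ± 0.26) and Rpl12 (-0.95 ± 0.27), with edgeR adjusted p values of 0.146 each. Rps7 and Rpl12 had both RP libraries below all 6 libraries of the groups without conjugate.

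With the conjugate and a drug, the median log2 fold changes over PBS were -0.60 for R+X and -0.69 for R+D. In R+X, 7 genes had an unadjusted edgeR p under 0.05, all lower (background 2.47%), and DESeq2 called 0 (background 0.00512%). All 76 had both R+X libraries below both PBS libraries, against 27.5% of all genes tested. Rpl9 (-0.85 ± 0.34) and Rps15a (-0.69 ± 0.28) were among those of smallest p, at an edgeR adjusted p of 0.575. In R+D, 36 genes had an unadjusted edgeR p under 0.05, all lower (background 6.66%), DESeq2 called 0 (background 0.436%), and 74 lay below both PBS libraries (background 27.4%), with Rpl23 and Rpl36a the exceptions. Rps14 had the smallest p there, at -1.12 ± 0.36 (edgeR adjusted p = 0.314). Without PBS replicate 2 the medians were -0.24 for R+X and -0.32 for R+D, and 0 genes in both had an unadjusted edgeR p under 0.05. The count in R+X was 45 without PBS replicate 1 and 0 without R+X replicate 1 or R+X replicate 2, 18 with no filter on low counts, 4 when scaled by library totals alone and 65 when only R+X and PBS were fitted. In R+D it was 55 without PBS replicate 1, 0 without R+D replicate 1 and 7 without R+D replicate 2, 23 when scaled by library totals alone and 68 when only R+D and PBS were fitted.

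The drugs alone gave smaller medians. Under DPD the median was -0.53, 3 genes (Rpl39 and Rpl7 among them) had an unadjusted edgeR p under 0.05 (background 1.4% lower), DESeq2 called 0 (background 0.0154%), and 6 genes were below both PBS libraries (background 17.6%), among them Rpl13, Rpl24, Rplp2, Rps10 and Rps28. Under DOX the median was -0.14, no gene had an unadjusted edgeR p under 0.05 (background 1.22% lower), DESeq2 called 0 (background 0%), and for none were both DOX libraries below both PBS libraries (background 9.43%). These medians differed widely with single libraries left out. The DPD median was -0.17 without PBS replicate 2, -0.82 without PBS replicate 1, -0.85 without DPD replicate 1 and -0.28 without DPD replicate 2. Its 3 genes at an unadjusted edgeR p under 0.05 became 0, 33, 28 and 0 with those libraries left out, in that order, 12 with no filter on low counts and 1 when only DPD and PBS were fitted. The DOX median was 0.18 without PBS replicate 2, 0.20 without DOX replicate 2, -0.43 without PBS replicate 1 and -0.73 without DOX replicate 1, where 41 genes were lower at an unadjusted edgeR p under 0.05.

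**Figure D4:**
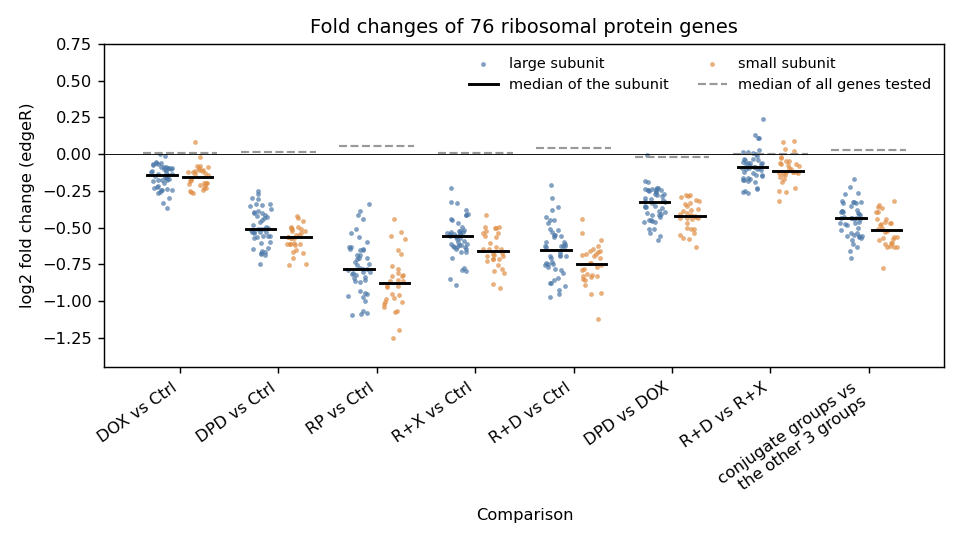
Log2 fold change of each of the 76 ribosomal protein genes (points, large and small subunit apart) in 8 comparisons, with a line at each subunit's median and a dashed line at the median of all genes tested. Every gene lies below 0 in RP, DPD, R+X and R+D over PBS, and the medians run from -0.81 (RP) to -0.14 (DOX).

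DOX and DPD, given alone at the same 0.56 mg/kg and by the same route, could be compared as a pair, as could both with the conjugate. For DPD over DOX the median was -0.37 and all 76 values were negative (background 52.3%), but the 95% interval of every gene included 0. Over the 76 genes the intervals reached from -2.04 to 0.88. No gene had an unadjusted edgeR p under 0.05 (background 1.28% lower), DESeq2 called 0 (background 0.031%), and 2 genes, Rps15a among them, had both DPD libraries below both DOX libraries (background 10.5%). Rps15a gave -0.54 with a 95% interval of -1.16 to 0.08 (edgeR adjusted p = 0.979). Without DOX replicate 1 the median turned to 0.17, without DOX replicate 2 it was -0.74, without DPD replicate 1 -0.68 and without DPD replicate 2 -0.11. At an unadjusted edgeR p under 0.05, 3 genes were then higher without DOX replicate 1, and 56 were lower without DOX replicate 2 and 16 without DPD replicate 1.

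For R+D over R+X the median was -0.09, with 63 negative (background 49.3%) and 13 positive values (background 50.7%), and again the 95% interval of each of the 76 included 0. The intervals ran from -1.43 to 1.55. No gene had an unadjusted edgeR p under 0.05 in either direction (background 1.52% lower and 3.75% higher), and DESeq2 called 0 (background 0.0435% lower). With only R+D and R+X fitted, 10 were lower at such a p. Libraries did not overlap for 30 genes lower in R+D (background 23%) and for 2 higher, Rpl41 and Rpl36a (background 22.5%). Rpl36a read 228 and 251 CPM under R+X and 261 and 304 under R+D, and Rps14 1159.9 and 1370.1 against 909 and 1123. Without R+X replicate 1 the median was -0.17, without R+X replicate 2 -0.04, without R+D replicate 1 -0.05 and without R+D replicate 2 -0.15.

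The 3 groups given the conjugate were then set, as an average, against the 3 groups without it. Among the groups given a drug, the sides also differed in its route, so this average does not isolate the conjugate. The median log2 fold change was -0.47 with all 76 values negative (background 46.6%), and 54 genes had an unadjusted edgeR p under 0.05, all lower (background 9.47%). edgeR called 0 at an adjusted p of 0.05, with Rps14 of smallest p at -0.78 ± 0.21 (edgeR adjusted p = 0.158), and DESeq2 called 19 lower (background 2.56%). No gene had all 6 libraries of the conjugate groups below all 6 others (background 0.0768%), and in share of reads DPD replicate 2 and DOX replicate 2 lay among the conjugate groups. Without DOX replicate 2 the median was -0.59. The number of the 76 genes that edgeR called also changed there. No share of all genes called lower was computed for that fit, so no count is given. Without DOX replicate 1 the median was -0.27, and with PBS replicate 2 and DOX replicate 1 both left out, an alternative chosen after seeing the data, it was -0.16. The 54 genes at an unadjusted edgeR p under 0.05 became 23 without PBS replicate 2, 28 without DOX replicate 1, 24 without DPD replicate 1, 28 without RP replicate 2, 29 without R+X replicate 1 and 31 without R+D replicate 1, and 9 with PBS replicate 2 and DOX replicate 1 both left out. With scaling by library totals alone they were 36.

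The difference of the conjugate's effect with and without a drug was tested for each gene. With DOX the median difference was 0.36, with 73 of 76 positive (background 46.6%), and with DPD it was 0.64, with all 76 positive (background 48.7%). That sign means that the gap between conjugate and no conjugate was narrower where the drug was given. With a drug, however, the groups on either side of that gap also differed in the drug's route, and the conjugate dose is not stated. The difference thus cannot be read as a change in the effect of the conjugate alone. edgeR called 0 genes in both, DESeq2 called 0 (background 0% with DOX and 0.0102% with DPD, higher), and the unadjusted edgeR p was under 0.05 for 0 genes with DOX (background 0.958% higher) and for 2 with DPD (background 1.01% higher), Rpl39 at 0.97 ± 0.40 and Rps15a at 0.88 ± 0.40 (edgeR adjusted p = 0.840 for both). Both contrasts contain the PBS libraries. Without PBS replicate 2 the medians were 0.01 with DOX and 0.29 with DPD, and without DOX replicate 1 or DOX replicate 2 the first was 0.95 or -0.01. Without RP replicate 2 they were 0.18 and 0.41. The median with DOX was also 0.63 without PBS replicate 1 and 0.61 without RP replicate 1, and the median with DPD was 0.39 without DPD replicate 2. Genes at an unadjusted edgeR p under 0.05, all higher, numbered 6 with DOX without PBS replicate 1 and 39 without DOX replicate 1. With DPD they numbered 27 without PBS replicate 1, 24 without DPD replicate 1, 0 without any 1 of the other 6 libraries compared, 6 with no filter on low counts and 1 when scaled by library totals alone.

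Large and small subunit genes kept close proportions. The ratio of their summed CPM was 1.51 and 1.42 in the PBS libraries, 1.51 and 1.36 under DOX, 1.48 and 1.57 under DPD, 1.57 and 1.52 under RP, 1.53 and 1.505 under R+X, and 1.55 and 1.52 under R+D. DOX replicate 2 and PBS replicate 2 were the lowest libraries, and group means ran from 1.44 ± 0.10 (DOX) to 1.55 ± 0.03 (RP; SD, n = 2). In RP over PBS the median log2 fold change was -0.78 over the large and -0.88 over the small subunit genes, a gap of 0.10. The gap was 0.10 in R+X and R+D, 0.06 in DPD and 0.01 in DOX. It can be set against a within-group standard deviation of 0.04 for the same gap between libraries, and it was 0.06 in RP without PBS replicate 2, 0.16 without PBS replicate 1, 0.01 in R+X and 0.04 in R+D without PBS replicate 2.

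Other genes of the ribosome and its control were read from lists chosen with earlier results of these data known. Rps3a1, Rack1 and the fusion gene Fau encode ribosomal proteins that the name rule leaves out. In RP over PBS they gave -0.76 ± 0.26, -0.96 ± 0.24 and -0.99 ± 0.37, and 0 of them were called, where the median of all genes tested was 0.06. Rack1, a scaffold on the small subunit, read 1917 and 2872 CPM under PBS, 2587 and 1879 under DOX, 2030.4 and 1370.3 under DPD, 1269 and 1199 under RP, 1698 and 1799 under R+X and 1438 and 1393 under R+D (edgeR adjusted p = 0.128 for RP over PBS). It too has a suffixed copy, at 0.624 of its reads. The library order was that of the 76 genes at the top, with PBS replicate 2 and DOX replicate 1 highest.

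Of 13 translation factors and related genes whose mRNAs carry the same 5′ tract, 10 were negative in RP over PBS and 0 were called. Their median was -0.50, and 7 were lower at an unadjusted edgeR p under 0.05 (background 9.38%). Eef1a1, which brings aminoacyl-tRNA to the ribosome, gave -0.72 ± 0.17 (edgeR adjusted p = 0.127). Eif3f, a subunit of the eIF3 initiation complex, gave -0.90 ± 0.23 (edgeR adjusted p = 0.130). Poly(A)-binding protein Pabpc1 gave 0.02 ± 0.16 and the splicing and export factor Hnrnpa1 0.04 ± 0.17, both smaller than their standard errors.

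All 77 mitochondrial ribosomal protein genes, which serve a different ribosome, were negative in RP over PBS, with a median of -0.51, and 0 were called. At an unadjusted edgeR p under 0.05, 24 were lower (background 9.38%). Mrps35 gave -0.83 ± 0.23 and Mrpl55 -0.85 ± 0.26. By contrast the 34 ribosome biogenesis factors had a median of -0.15, with 22 negative and 12 positive. Nip7 gave -0.65 ± 0.27 and Utp20 0.50 ± 0.20 among them, and 0 were called. The 22 genes of mTOR and oligopyrimidine control had a median of 0.07: Larp1 gave 0.62 ± 0.21 (edgeR adjusted p = 0.170), the double-stranded RNA kinase gene Eif2ak2 0.88 ± 0.34, Rheb -0.44 ± 0.16 and Myc -0.37 ± 0.16, and 0 were called.

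Larp1, the repressor of these mRNAs, read 197 and 131 CPM under PBS, 172 and 204.1 under DOX, 198 and 249.7 under DPD, 259.7 and 245 under RP, 224.97 and 196 under R+X and 262 and 239.6 under R+D. Its lowest library was PBS replicate 2 and its next lowest DOX replicate 1, the 2 libraries in which the ribosomal protein genes were highest. This was not particular to Larp1. The median deviation of the 22 genes of mTOR and oligopyrimidine control was also lowest in these libraries, at -0.21 and -0.14. Larp1 has a length of 6615.5 bases, and length moved with the library values, as described further on. The part of length in the values of Larp1 was not tested. Of 8 paralogs, 5 were negative, led by Rps27rt (-1.72 ± 0.44) and Rpl22l1 (-0.85 ± 0.35), with a median of -0.40. The 3 positive values, of Rpl3l (1.36 ± 1.49), Rpl39l (0.11 ± 1.47) and Rps4l (0.00 ± 0.45), were smaller than their standard errors. The 10 pseudogenes named for ribosomal proteins had a median of -1.21, 8 negative and 2 positive, with Rpl17-ps10 at -1.42 ± 0.35 and Rpl17-ps8 at -1.397 ± 0.39. The positive values were those of Rps15a-ps4 (0.84 ± 0.60) and Rps19-ps3 (0.17 ± 0.35). Reads of a pseudogene and its parent cannot be told apart where the sequences match, so these values are uncertain, and 0 paralogs or pseudogenes were called.

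**Figure D5:**
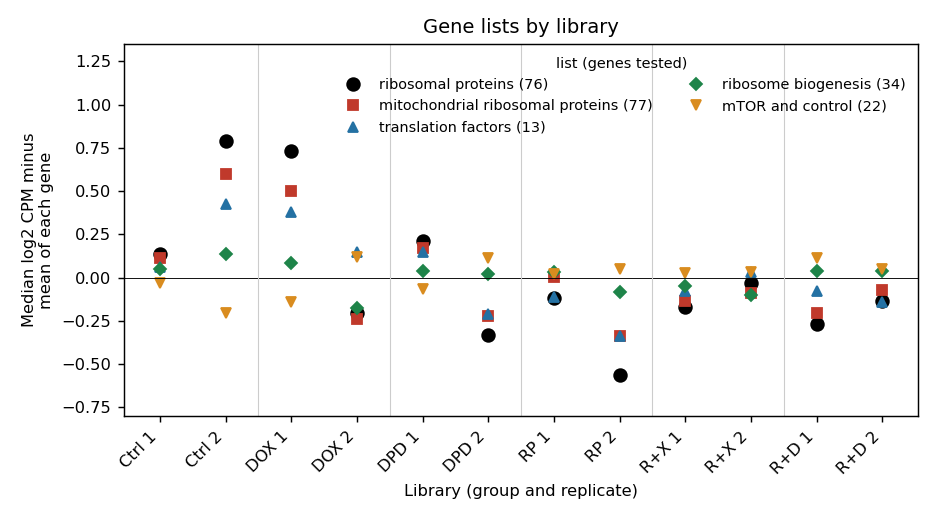
Median deviation of log2 CPM from the 12-library mean in each library for the 76 ribosomal protein genes and 4 related lists, 1 symbol a list. The mitochondrial ribosomal proteins peak in the same 2 libraries (0.60 in PBS replicate 2 and 0.50 in DOX replicate 1), and the biogenesis factors stay between -0.17 and 0.13.

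Ribosomal protein mRNAs are short, with a median length of 704 bases against 2033 over all genes tested, and length moved with the library values. Over genes, Spearman's rho between length and deviation from the mean was -0.39 in PBS replicate 2 and -0.35 in DOX replicate 1, and 0.27 in RP replicate 2 and 0.30 in DPD replicate 2. Lengths here are medians over annotated coding transcripts, and partial models were not excluded. A gene with a long mRNA can thus count as short. In 621 other genes no longer than 936 bases by this measure, the median deviation was 0.28 in PBS replicate 2 and 0.25 in DOX replicate 1. It was -0.18 in RP replicate 2, and the 76 genes stood at 0.79, 0.73 and -0.57 in these libraries. The 621 genes were kept by a looser limit on abundance than the other abundant genes used earlier for library pairs. They were not matched to the 76 genes in level, so this contrast is not one between short genes of like abundance. With the trend over length removed from the fold changes, the medians of the 76 genes were -0.63 for RP, -0.34 for DPD, -0.36 for R+X, -0.50 for R+D and -0.07 for DOX over PBS. The part of length, RNA quality or cell makeup in these values was not otherwise tested.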

How the data were processed

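12 libraries of RNA from whole mouse tumours, 2 for each of 6 treatments, were measured by RNA-seq (NEBNext Ultra libraries from TRIzol RNA, per the labels' protocols). The values used are the count of reads per gene that the authors deposited as whole numbers for all libraries. HISAT2 2.1.0, StringTie 1.3.5, DESeq2 and the build GRCm38 are named in the submitters' processing notes. How reads were counted, with which annotation and whether by strand, is not given in the sources used here, so overlapping and antisense genes cannot be separated. The 12 per-library files were not used for any value.

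Groups follow the agent label, and replicate numbers only name libraries. Whether 2 libraries of a group are from different animals is not stated in the labels' protocols, so p-values measure a spread that may be technical. The 76 genes, the related lists and the comparisons were chosen with earlier results of these data known.

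Counts were filtered with edgeR's filterByExpr (19525 of 43698 rows kept), scaled by TMM and fitted in 1 model of 6 groups with edgeR 4.0.16 quasi-likelihood tests (R 4.3.3, limma 3.58.1). Benjamini-Hochberg adjustment ran over all genes tested in each of 10 comparisons, and a gene was called at an adjusted p under 0.05. Standard errors are the absolute log2 fold change divided by the root of the F statistic, and 95% intervals use the test's degrees of freedom. The edgeR script was tested on simulated data. Log2 CPM used a prior count of 2. mRNA lengths are medians over protein-coding transcripts of GENCODE M21, which gives Rps20 a single long model, so its level per kilobase is unreliable. Partial models were not excluded, so lengths, levels per kilobase and the length correction can be off for other genes too. Promoter windows are from RefSeq.

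Genes named are, in each subunit, the 5 highest and 3 lowest by mean CPM, the 3 of smallest p per direction in each comparison, the 3 most and 3 least variable within groups, the 3 least like the mean profile, 14 chosen by role, and 2 per direction of each related list. Some genes that this rule names are not reported here. The others named are ends of a range or members of small sets, chosen after their values were seen. Alternatives were DESeq2 1.42.0, RLE or no scaling, TMM without the 76 genes, no filter, a length correction, only the compared groups, and leaving out each library.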

Additional observations from a re-analysis of the deposited data

How the results depend on the processing

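Counts of called genes, medians and subunit gaps were recomputed under each alternative. The sign of the median of the 76 genes over PBS was negative in RP, DPD, R+X and R+D under every alternative run, and those of DOX over PBS, DPD over DOX and the DOX contrast of conjugate effects turned with 1 library left out. DESeq2 called 22 genes in RP over PBS (2.63% of all genes were called lower) and 19 in the conjugate average (2.56%), where edgeR called 0. Scaling by library totals alone moved the median of all genes in RP over PBS by 0.16, and the RP median relative to all genes was -0.86, against -0.87 with TMM. With single libraries left out, the count called in the conjugate average ran from 0 to 65. The median then ran from -0.73 to 0.20 for DOX over PBS, from -0.74 to 0.17 for DPD over DOX, and from -0.010 to 0.95 for the conjugate effect with DOX minus that without drug. The gap of large minus small subunit medians ran from 0.057 to 0.16 in RP, from -0.082 to 0.069 in DOX, from 0.015 to 0.12 in DPD, from 0.013 to 0.14 in R+X and from 0.043 to 0.15 in R+D over PBS. It ran from 0.033 to 0.11 in DPD over DOX, from -0.15 to 0.079 in the DOX contrast and from -0.17 to -0.037 in the DPD contrast of conjugate effects. With PBS replicate 2 and DOX replicate 1 left out together, chosen after seeing the data, the gap was -0.064 in DOX, 0.013 in R+X and 0.043 in R+D, and 0.11 and -0.037 in the DOX and DPD contrasts, and the median of DPD over DOX was 0.17. Adding the ribosomal protein genes that the name rule leaves out, which are mostly of the small subunit, took the median ratio of large to small subunit reads from 1.51 to 1.36. Where no cause is named, the cause was not tested. The gap on centred values and the spread beside abundant genes are on other scales and were not ranked against these. No paired analysis was possible because the labels give no replicate numbers. With 2 libraries a group, the median standard error of the 76 genes in RP over PBS was 0.33. edgeR called 0 of them there, although single log2 fold changes reached -1.25 (Rps14). Single-gene differences well above that standard error thus also went uncalled. Depth was not limiting, with at least 1374 reads per gene and library.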
